A study of Mus musculus with 16 samples.

Results

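The leptin receptor signalling genes examined here were *Lepr*, *Jak2*, *Stat3*, *Socs3* and *Ptpn1*, chosen by symbol as the receptor, its kinase, its main transcription factor and a pair of its inhibitors. They are 5 of the 24411 genes in the table of raw counts, and all 5 were among the 13660 genes that passed the filter on low counts. Leptin, a hormone of fat cells, binds the long form of its receptor and activates the receptor-bound tyrosine kinase JAK2. JAK2 phosphorylates the receptor, and STAT3 is recruited there, phosphorylated and sent to the nucleus, where it activates genes that include *Socs3*. SOCS3 binds the receptor and blocks further signalling, and the phosphatase PTP1B, the product of *Ptpn1*, dephosphorylates JAK2. JAK2, STAT3 and SOCS3 also serve other cytokine receptors, and PTP1B also acts on the insulin receptor.

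RNA-seq of whole pancreas was performed on 16 male mice, each giving 1 library. All were labelled as strain C57BL6/J and killed at 12 weeks of age after 6 weeks on control or drug-containing drinking water, begun at 6 weeks of age. The comparisons ask how the obese pancreas differs from the lean one, and how it responds to blockade of the receptors for cholecystokinin (CCK), a peptide hormone. The WT group held 5 mice on control water and the untreated *Lep*(ob/ob) group 7 mice on control water. The group named CCKRi held 4 *Lep*(ob/ob) mice, 2 given the CCK receptor antagonist proglumide at 0.1 mg/ml and 2 given lorglumide at 0.05 mg/ml. *Lep*(ob/ob) mice carry a premature stop codon in the leptin gene and make no working leptin, so the receptor lacked its ligand in both obese groups, while the labels give no change to the members themselves. No WT mouse was given an antagonist. The labels describe WT mice as bred in house and *Lep*(ob/ob) mice as purchased, whereas the study's methods describe both as purchased, so a difference in breeding site between the genotypes cannot be settled here.

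The labels also place each library in 1 of 2 batches, named A and B here. All 4 CCKRi mice were in batch B, together with 3 untreated *Lep*(ob/ob) and 2 WT mice, while batch A was made up of 4 untreated *Lep*(ob/ob) and 3 WT mice. Total counts ran from 19.2 M to 34.5 M in batch A and from 9.87 M to 15.9 M in batch B. Acinar markers were abundant in every library, but at unlike levels. Their sum was 6147000 to 9938000 normalized counts among batch A mice. Every batch B mouse lay lower, at 1414000 to 5891000. Inside batch B the groups overlapped, with CCKRi mice at 1414000 to 4184000, untreated *Lep*(ob/ob) mice at 2475000 to 5891000 and WT mice at 2764000 and 4952000. The part of acinar content in the members' levels was not tested. None of the 50 cell type markers examined was at 0 in any mouse. The transcript of *Lep* itself was counted at 17.5 to 64.7 normalized counts in WT and at 254 to 8655 in untreated *Lep*(ob/ob) mice. Whether these reads carried the stop codon was not tested. Of 6 adipocyte markers, *Cfd*, which encodes adipsin, fell by 3.15 on the log2 scale in *Lep*(ob/ob) mice (edgeR adjusted p = 0.00806), and the other 5 did not pass the test. Summed over the 6, however, the adipocyte markers ran from 2878 to 6258 normalized counts in WT and from 3324 to 59340 in untreated *Lep*(ob/ob) mice. In whole-tissue RNA, fewer cells of a type and less RNA per cell cannot be told apart.

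The members lie at separate loci of GRCm38, the build to which the reads were aligned (as mm10). *Lepr* spans chr4:101717404-101815352 on the plus strand and has 7 annotated transcripts, 4 of them coding. The table counts reads per gene, so the long signalling form of the receptor cannot be separated from its short forms. *Jak2* lies at chr19:29251828-29313080 on the plus strand. *Stat3* lies at chr11:100885098-100939540 on the minus strand, and 72 of its exon bases overlap *Stat5a* on the opposite strand. *Socs3* lies at chr11:117966079-117970047 on the minus strand, and *Ptpn1* at chr2:167932057-167979385 on the plus strand. Of all 50-base stretches in the transcripts of *Lepr*, 2.37% also occur in another gene's transcripts, against at most 0.308% for the other members, so a small part of the *Lepr* reads could have been assigned elsewhere.

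Phosphorylated STAT3 binds DNA at a palindrome with the core TTCNNNGAA, which reads the same on both strands. The promoter windows of RefSeq (GRCm38.p6), from 250 bases before to 50 bases after each gene start, were searched for it. Such a core was found in 8.3% of 32851 windows. All 5 members had a window, and only that of *Socs3* held the core, starting 154 bases before the RefSeq gene start. Among other pathway genes with a window, the core was found in 2 of 6 feedback inhibitors (*Cish* and *Ptpre*). It was also in 1 of 12 STAT3 targets (*Icam1*) and 1 of 11 other cytokine receptors (*Prlr*). None of 14 kinases and adaptors, 5 other STATs, 6 ligands of those receptors or 2 genes of ligand and receptor handling held it. The sequence before the RefSeq start of *Socs3* (chr11:117969367-117969616, minus strand, core in capitals) is shown because *Socs3* is the member that STAT3 is known to activate, and those around the cores of *Ptpre*, *Icam1* and *Prlr* are shown for comparison. *Ptpre* encodes another phosphatase of the pathway, *Icam1* an adhesion molecule and *Prlr* the prolactin receptor, which also signals through JAK2.
Socs3: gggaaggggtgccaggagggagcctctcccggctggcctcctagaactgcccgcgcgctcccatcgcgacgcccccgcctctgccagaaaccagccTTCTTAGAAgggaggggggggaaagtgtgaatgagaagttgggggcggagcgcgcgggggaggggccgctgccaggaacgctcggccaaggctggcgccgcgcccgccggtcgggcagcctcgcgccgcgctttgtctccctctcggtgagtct
Ptpre: gtcaaaatgtTTCTCAGAAatgtcttaca
Icam1: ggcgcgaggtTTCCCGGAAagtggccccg
Prlr: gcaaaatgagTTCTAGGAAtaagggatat
The stretch of *Ptpre* is chr7:135593274-135593302, that of *Icam1* chr9:21015888-21015916 and that of *Prlr* chr15:10223786-10223814, all on the plus strand. The annotations place the *Socs3* start differently: RefSeq puts it at base 117969366 of chromosome 11, GENCODE puts that of the coding transcript downstream at 117969186, and GENCODE noncoding transcripts start at 117969451 and 117970047, so the stretch shown lies within the GENCODE gene span. A match describes these letters in this window and is no evidence of binding.

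All 5 members were transcribed in every pancreas, at unlike levels. Per kilobase of annotated exon, the mean level in WT mice was 66.3 ± 15.7 normalized counts for *Stat3*, 60.0 ± 2.69 for *Jak2*, 40.4 ± 7.14 for *Ptpn1*, 24.5 ± 4.90 for *Socs3* and 10.3 ± 2.82 for *Lepr* (SD, n = 5). In that order, *Stat3* and *Jak2* differed by less than the spread between mice, whereas each later pair of neighbours differed by more than the sum of their SDs. In untreated *Lep*(ob/ob) mice (n = 7), the per-kilobase order was the same, with *Stat3* at 85.3 ± 15.9 and *Lepr* at 11.1 ± 4.32. There *Jak2* at 58.6 ± 13.8 and *Ptpn1* at 54.9 ± 9.86 normalized counts per kilobase could not be separated by their spread. In CCKRi mice (n = 4), *Jak2* at 57.3 ± 7.68 per kilobase stood above *Stat3* at 49.4 ± 10.5, a difference smaller than the sum of their SDs. *Lepr* was the lowest of the 5 in all 3 groups, with raw counts of only 32 to 178 reads in a library, and *Socs3* was counted at 25 to 223 reads.

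**Figure D1:**
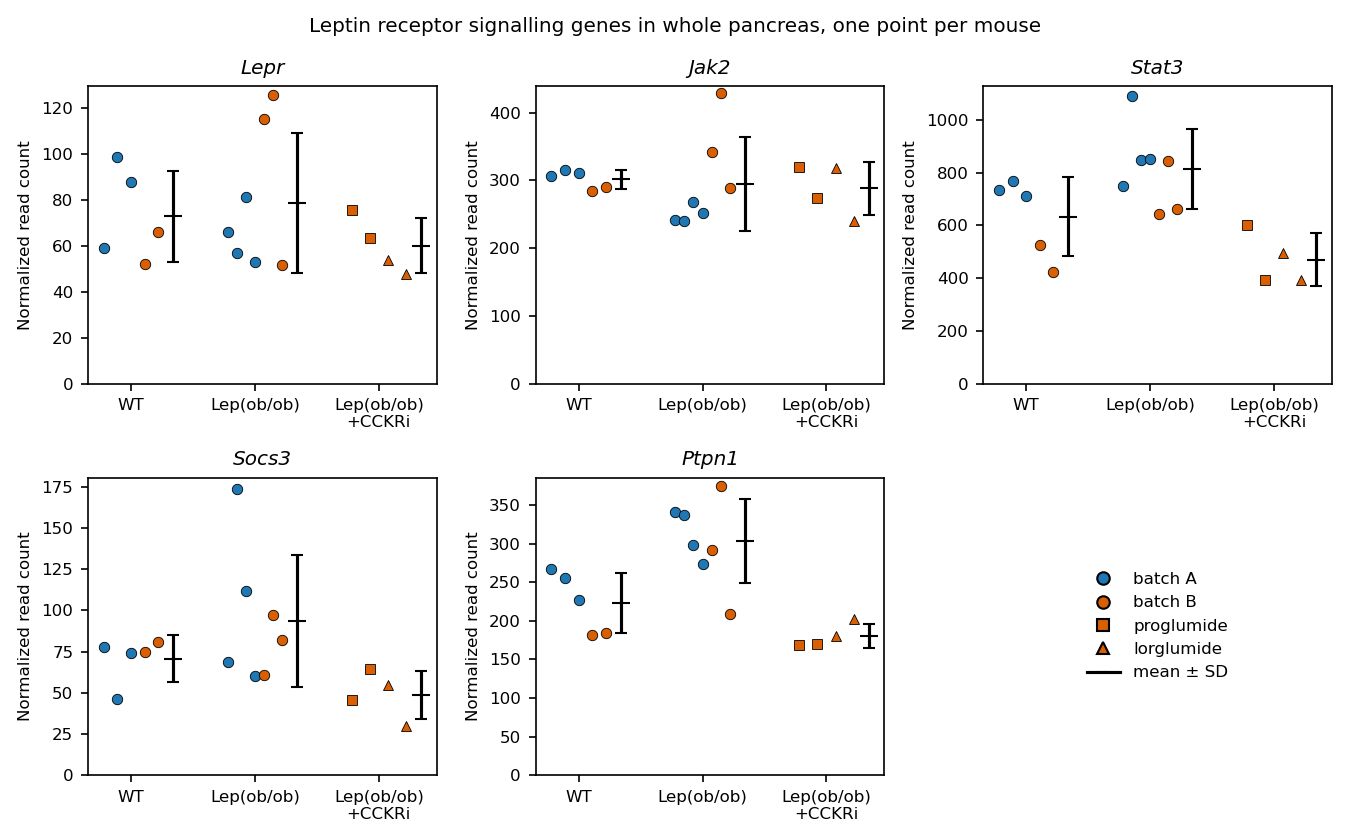
Normalized read count (y axis, linear from 0) of each member in each mouse, by group (x axis); colour gives the batch, squares and triangles the mice given proglumide and lorglumide, and the bar beside each group its mean ± SD. All 4 CCKRi mice lie below all 7 untreated Lep(ob/ob) mice for Stat3 (391 to 603 against 643 to 1092) and Ptpn1 (168 to 203 against 208 to 376), while the groups overlap for the other 3 genes.

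Between untreated *Lep*(ob/ob) and WT pancreas, *Ptpn1* rose 1.36-fold, and the other 4 members did not pass the test. *Stat3* and *Socs3* had higher and *Jak2* a lower mean in the obese group, none past the threshold. The model was edgeR's quasi-likelihood fit of the raw counts with group and batch, adjusted over all 13660 genes, of which 9.07% passed at an adjusted p under 0.05 (5.93% higher and 3.14% lower in *Lep*(ob/ob)). The members' count of 1 in 5 is to be read against that background, and 2 of the 5, *Ptpn1* and *Stat3*, had an unadjusted p under 0.05, as did 23.8% of all genes. Their median log2 fold change was 0.38, against -0.02 over all genes tested.

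*Ptpn1* encodes PTP1B, the phosphatase that turns off JAK2. In batch A, its normalized counts were 227, 255 and 268 in the WT mice and 273, 298, 337 and 341 in the *Lep*(ob/ob) mice. In batch B, they were 182 and 185 in the WT mice and 208, 292 and 376 in the *Lep*(ob/ob) mice. The obese mice stood above the lean mice within each batch, but over both batches the groups overlapped, since the lowest obese mouse of batch B lay below the WT mice of batch A. Such a separation upwards was seen for 11.2% of all genes in batch A and 17.5% in batch B. The log2 fold change was 0.45 ± 0.13 (SE; 95% interval 0.17 to 0.73; edgeR adjusted p = 0.0432). Log2 CPM was taken from counts scaled to library size after adjustment by TMM, a factor for each library. An exact two-sided permutation test of log2 CPM within batches gave p = 0.0143 without correction. The smallest possible p among 350 arrangements was 0.00286. The call was close to the threshold: leaving out 1 mouse at a time, it was lost in 9 of 12 fits, with the log2 fold change between 0.37 and 0.54 and the adjusted p between 0.0132 and 0.125. Without the 4 mice that had the highest adipocyte markers (3 untreated and 1 CCKRi), it was 0.31 ± 0.11 (adjusted p = 0.0865).

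*Stat3*, the transcription factor of the pathway, was counted at 712, 732 and 767 in the WT mice of batch A and at 749, 849, 850 and 1092 in the *Lep*(ob/ob) mice of that batch. In batch B, the values were 422 and 527 in WT and 643, 662 and 843 in *Lep*(ob/ob) mice. The groups were apart in batch B, as they were upwards for 17.5% of all genes, and overlapped in batch A, where 1 obese mouse lay below the highest WT mouse. The log2 fold change was 0.38 ± 0.14 (95% interval 0.09 to 0.68; edgeR unadjusted p of 0.0141, adjusted p = 0.1), so *Stat3* did not pass the adjusted threshold. The exact permutation test within batches gave p = 0.00857 without correction. *Stat3* was also lower in batch B than in batch A across the groups, by a log2 difference of -0.45 (adjusted p = 0.0213), and 35.7% of all genes differed between the batches.

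*Socs3*, the inhibitor that STAT3 induces, had the largest coefficient of variation of the members in both obese groups, though not in WT mice, where that of *Lepr* was larger (27.3%). Its WT counts were 45.9, 73.9 and 78.1 in batch A and 74.6 and 81.1 in batch B. The *Lep*(ob/ob) mice had 60.4, 68.5, 112 and 174 in batch A and 60.9, 82.2 and 97.5 in batch B. The groups overlapped in both batches, and the coefficient of variation was 42.9% in *Lep*(ob/ob) against 20.1% in WT mice. The log2 fold change of 0.39 ± 0.27 (95% interval -0.18 to 0.96; adjusted p = 0.401) did not pass the test. It was 0.64 in batch A and 0.04 in batch B (edgeR interaction term, adjusted p = 0.626), and over both batches 0.17 without mouse 472 and 0.25 without WT mouse 5492. Mouse 472 had the highest value of *Socs3*, at 174, and also that of *Stat3*.

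*Lepr*, the receptor, was counted at 59.2, 87.9 and 98.8 in the WT mice of batch A and at 53.1, 56.8, 66.0 and 81.3 in the *Lep*(ob/ob) mice of that batch. In batch B, it was 51.9 and 66.0 in WT and 51.8, 115 and 126 in *Lep*(ob/ob) mice. The groups overlapped in both batches, with the mean of the obese mice the lower in batch A and the higher in batch B. The log2 fold change over both was 0.05 ± 0.25 (adjusted p = 0.933), and its 95% interval of -0.48 to 0.58 leaves room for a change of up to about the size seen for *Ptpn1* in either direction. Without the 4 mice of highest adipocyte markers, it was -0.41 ± 0.19 (adjusted p = 0.187). That fit keeps 1 untreated *Lep*(ob/ob) mouse of batch B, the lowest there at 51.8. *Lepr* was -0.37 in batch A and 0.70 in batch B on the log2 scale, a difference between batches of 1.07 (edgeR interaction term, unadjusted p of 0.0285, adjusted p = 0.438). No gene passed the adjusted threshold for this interaction, and 11% of genes had an unadjusted p under 0.05.

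*Jak2*, the receptor's kinase, was the least variable member in WT mice, with a coefficient of variation of 4.49% and counts of 284 to 315. In batch A, the *Lep*(ob/ob) mice had 240, 242, 252 and 268 counts, all below the 3 WT mice at 307 to 315. In batch B, they had 288, 343 and 429, against 284 and 291 in WT mice. The obese mice thus stood apart below the WT mice in batch A, as they did for 9.92% of all genes, and overlapped them in batch B. The exact permutation test in batch A alone gave an uncorrected p of 0.0286, the smallest that 4 against 3 mice can give. The log2 fold change was -0.32 in batch A and 0.28 in batch B, a difference of 0.61 (edgeR interaction term, unadjusted p of 0.0148, adjusted p = 0.438). Over both batches it was -0.08 ± 0.13 (95% interval -0.35 to 0.19; adjusted p = 0.758).

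**Figure D2:**
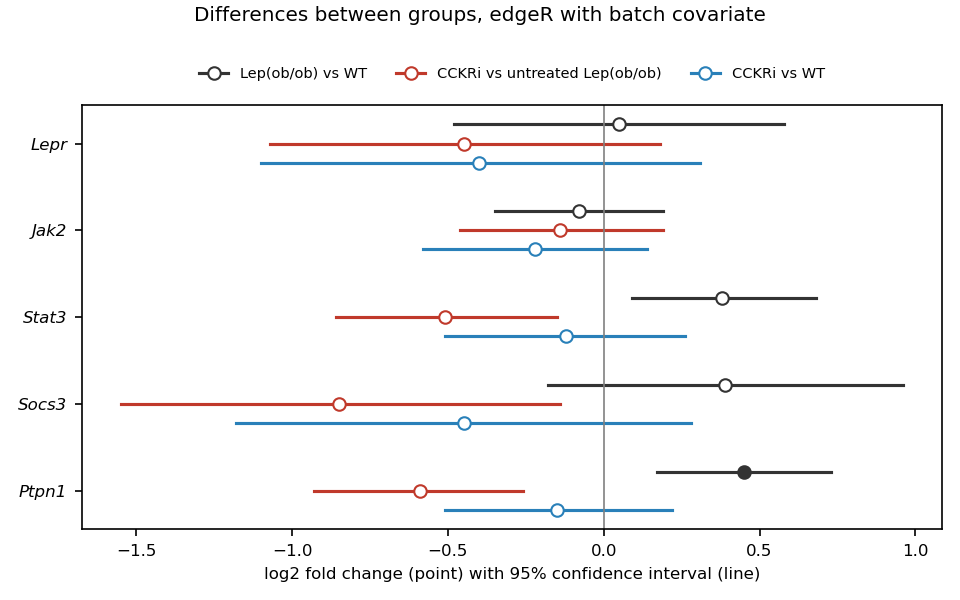
Log2 fold change of each member (points) with its 95% confidence interval (lines) in the 3 comparisons, from the edgeR fit with batch; a filled point has an adjusted p under 0.05. Only Ptpn1 in Lep(ob/ob) against WT is filled, at 0.45, and the 5 estimates of CCKRi against untreated Lep(ob/ob) mice lie between -0.85 and -0.14.

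Between CCKRi and untreated *Lep*(ob/ob) pancreas, none of the 5 members passed the adjusted threshold of edgeR, while 3 had an unadjusted p under 0.05. DESeq2 on the same counts called 1 of them, *Ptpn1*, and 0.761% of all genes. Over all genes, 0.0586% passed in edgeR (0.0293% in each direction), and 14.3% had an unadjusted p under 0.05. The members' log2 fold changes ran from -0.85 to -0.14 with a median of -0.51, against -0.01 over all genes tested. In the same comparison, the median log2 fold change was -1.19 for 5 macrophage markers, -0.87 for 6 fibroblast and stellate markers, -0.48 for 5 lymphocyte markers, -0.44 for 6 adipocyte markers, -0.37 for 8 acinar markers and -0.22 for 6 endothelial markers, but 0.20 for 5 duct and 0.54 for 8 islet markers. None of these markers passed the test, and their part in the members' values was not tested. This comparison shares its untreated *Lep*(ob/ob) mice with the comparison above, so high values in those mice enter both.

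*Ptpn1* was counted at 168 and 170 in the mice given proglumide and at 181 and 203 in those given lorglumide. All 4 lay below the lowest untreated *Lep*(ob/ob) mouse, at 208, as was so for 2.91% of all genes. Against the 3 untreated mice of batch B alone, the CCKRi mice were lower too, as were 4.06% of genes. The log2 fold change was -0.59 ± 0.16 (95% interval -0.93 to -0.26; edgeR unadjusted p of 0.00164, adjusted p = 0.222), and by p-value *Ptpn1* stood at place 100 of 13660. DESeq2 gave -0.62 ± 0.18 (adjusted p = 0.0494), and edgeR without the batch term -0.73 ± 0.16 (adjusted p = 0.0479). Within batch B, the exact permutation test gave an uncorrected p of 0.0286, the smallest it can give there. Leaving out untreated mouse 463, the highest in *Ptpn1*, gave -0.42 ± 0.14 (adjusted p = 0.392). Without the 4 mice of highest adipocyte markers, the estimate was -0.25 ± 0.16 (adjusted p = 0.887), a fit that keeps 1 untreated mouse of batch B.

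*Stat3* was counted at 603 and 391 with proglumide and at 494 and 393 with lorglumide. These 4 values lay below all 7 untreated *Lep*(ob/ob) mice, the lowest of which had 643, a separation seen for 2.91% of all genes (4.06% within batch B). The log2 fold change was -0.51 ± 0.17 (95% interval -0.86 to -0.15; edgeR unadjusted p of 0.00774, adjusted p = 0.27). Without the batch term, edgeR gave -0.77 ± 0.20 (adjusted p = 0.0479), past the threshold, whereas DESeq2 with batch gave -0.53 ± 0.18 (adjusted p = 0.109). Within batch B, the exact permutation test gave p = 0.0571, uncorrected. Without the 4 mice of highest adipocyte markers, the log2 fold change was -0.55 ± 0.17 (adjusted p = 0.529).

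*Socs3* was counted at 45.6 and 64.3 with proglumide and at 55.0 and 29.8 with lorglumide, against 60.4 to 174 in untreated mice. The highest treated mouse lay above the lowest untreated mice, so the groups overlapped. The log2 fold change of -0.85 ± 0.33 was the most negative of the 5 (95% interval -1.55 to -0.14; edgeR unadjusted p of 0.0211, adjusted p = 0.301). Of all genes, 6.41% had a larger absolute log2 fold change.

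*Lepr* was counted at 75.5 and 63.3 with proglumide and at 53.9 and 47.7 with lorglumide, within or just below the untreated range of 51.8 to 126. Its log2 fold change was -0.45 ± 0.29 (95% interval -1.07 to 0.18; adjusted p = 0.48), or -0.20 without untreated mouse 463 and -0.28 without untreated mouse 461. *Jak2*, at 319 and 275 with proglumide and at 319 and 240 with lorglumide, overlapped the untreated mice at 240 to 429, with a log2 fold change of -0.14 ± 0.15 (adjusted p = 0.678). Neither gene passed even without adjustment. Both estimates turned positive without the 4 mice of highest adipocyte markers, to 0.23 for *Lepr* and 0.10 for *Jak2*. That fit keeps 1 untreated mouse of batch B, mouse 464. It was the lowest untreated mouse of that batch in both genes, at 51.8 and 288. The antagonists were given at unlike doses to 2 mice each, so their values are set side by side with no comparison between them.

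Between CCKRi and WT pancreas, no member passed the test in edgeR or in DESeq2, and in edgeR none had an unadjusted p under 0.05, against 16.7% of all genes. Over all genes, 5.57% passed in edgeR (4.22% higher and 1.35% lower in CCKRi). The log2 fold changes were -0.40 ± 0.33 for *Lepr*, -0.22 ± 0.17 for *Jak2*, -0.12 ± 0.18 for *Stat3*, -0.45 ± 0.35 for *Socs3* and -0.15 ± 0.17 for *Ptpn1*, with adjusted p-values from 0.582 to 0.801. Leaving out 1 mouse at a time gave -0.64 to -0.29 for *Lepr*, -0.33 to -0.14 for *Jak2*, -0.25 to -0.04 for *Stat3*, -0.62 to -0.29 for *Socs3* and -0.21 to -0.10 for *Ptpn1*, and no member passed. In batch B alone, which holds all CCKRi mice, *Lepr*, *Jak2* and *Stat3* were at 0.04, 0.02 and 0.01, and in a fit of only these groups at 0.05, 0.03 and 0.02. *Ptpn1* was at -0.01 in batch B alone and at 0.06 without the 4 mice of highest adipocyte markers. All treated mice were in batch B, where *Ptpn1* was 182 and 185 and *Stat3* 422 and 527 in the WT mice, inside the range of the treated mice for both genes. *Socs3* was the exception there: its 4 treated mice, at 29.8 to 64.3, lay below both WT mice, at 74.6 and 81.1, as was so for 10.3% of all genes. The exact permutation test of *Socs3* within batch B gave p = 0.133, where 0.0667 is the smallest that 4 against 2 mice can give.

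In part of the groups, markers of other cell types and some members were highest in the same mice. The summed adipocyte markers were highest in *Lep*(ob/ob) mouse 463 (59340 normalized counts), CCKRi mouse 69 (38230), *Lep*(ob/ob) mouse 461 (18870) and *Lep*(ob/ob) mouse 417 (16700). *Lepr* had its highest values in mice 463 and 461 (126 and 115), and mice 417 and 69 had the highest *Lepr* of their own group and batch (81.3 and 75.5). Over the 5 combinations of group and batch, the mouse highest in adipocyte markers was also the highest in *Lepr* in 4, in *Jak2* in 4 and in *Stat3* in 4, but in *Socs3* and *Ptpn1* in 1 each. Each combination held only 2 to 4 mice, so some such matches arise by chance, and no count of matches was tested against it. In each combination, the same mouse was highest in adipocyte, fibroblast, macrophage and lymphocyte markers, so these lists repeat the same counts and add no further matches. The mouse highest in duct markers was also the highest in *Socs3* in 3 of the 5, and for *Ptpn1* the acinar, islet and endothelial markers each matched in 2. Macrophage markers, for instance, summed to 12060 in mouse 463 and to 992 to 5088 in the other untreated *Lep*(ob/ob) mice. Among CCKRi mice, *Ptpn1* was lowest in mouse 69, the one with the most adipocyte markers. Islet markers ran from 23040 to 33910 in WT and from 46760 to 234400 in untreated *Lep*(ob/ob) mice, and 6 of 8 rose. They were lowest among the untreated obese mice in mouse 463, which had the highest *Ptpn1* of all 16 mice. Beyond the fits without the 4 mice, the part of these cell types in the results was not tested.

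**Figure D3:**
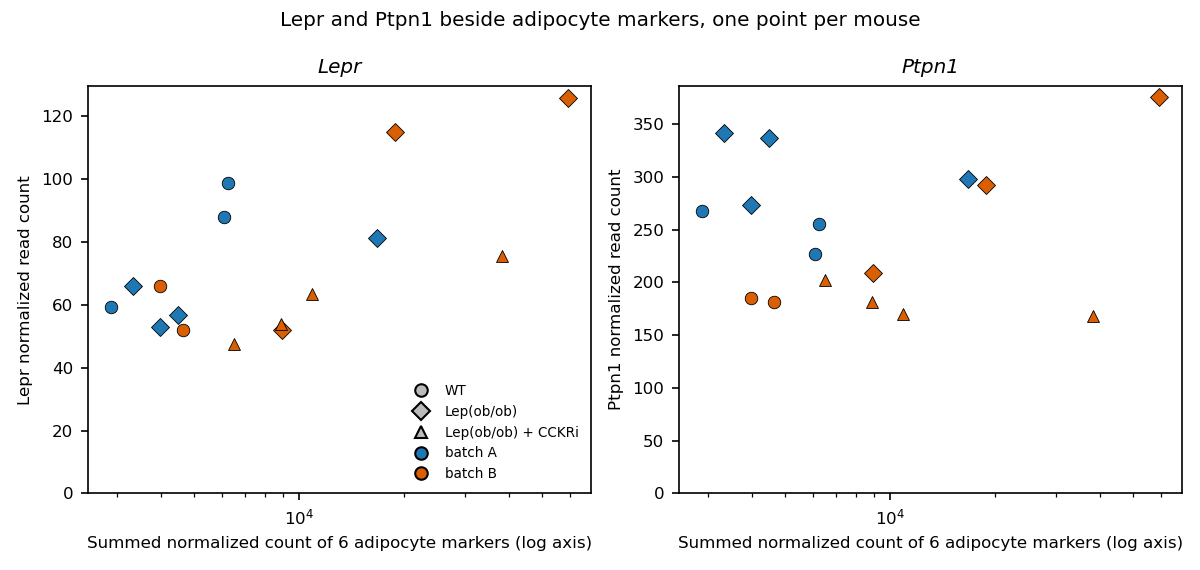
Normalized read count of Lepr (left) and Ptpn1 (right; y axes, linear from 0) against the summed normalized count of 6 adipocyte markers (x axis, log scale), 1 point per mouse, with shape for group and colour for batch. The untreated Lep(ob/ob) mouse at the far right (59340 marker counts) has the highest value of both genes, 126 and 376, while the CCKRi mouse beside it (38230) has the lowest Ptpn1 of all, at 168.

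The other genes of the pathway were taken from 7 lists by role, 71 genes in all, of which 61 were tested. Between *Lep*(ob/ob) and WT mice, 5 rose, 1 fell and 55 did not pass, beside the 9.07% of all genes that passed. Their median log2 fold change was 0.06. None of the 61 passed between CCKRi and untreated *Lep*(ob/ob) mice. Between CCKRi and WT mice, 4 rose and 1 fell, beside the 5.57% of all genes that passed there (4.22% higher and 1.35% lower).

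Upstream of the members, *Lep*, the ligand gene, rose by 5.38 ± 0.92 on the log2 scale in *Lep*(ob/ob) mice (adjusted p = 0.00146). Its highest levels, 8797 in CCKRi mouse 69 and 8655 in *Lep*(ob/ob) mouse 463, came from the 2 mice with the most adipocyte markers. *Leprot* and *Leprotl1*, whose products affect how much receptor reaches the cell surface, did not pass in any comparison. *Leprot* was at 0.12 ± 0.15 in *Lep*(ob/ob) against WT and at -0.49 ± 0.18 in CCKRi against untreated mice (adjusted p = 0.28).

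Of 16 kinases and adaptors near the receptor, only *Pik3r1*, a regulatory subunit of phosphoinositide 3-kinase, passed between *Lep*(ob/ob) and WT mice. It was counted at 707 to 1179 in WT and at 1111 to 1670 in *Lep*(ob/ob) mice, so that the groups overlapped slightly, and rose 1.53-fold (log2 0.61 ± 0.16, adjusted p = 0.0262). The other JAK family members, *Jak1*, *Jak3* and *Tyk2*, were at 0.11, 0.32 and -0.32, none past the threshold. *Ptpn11*, which encodes the phosphatase SHP2 of the receptor's MAP kinase branch, was at 0.49 ± 0.16 (adjusted p = 0.0677), and *Irs2*, an insulin receptor substrate, at 0.78 ± 0.25 (adjusted p = 0.0665). Both came near the threshold without passing it.

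Among the other STATs, *Stat2*, which acts downstream of type I interferon, fell by 0.55 on the log2 scale in *Lep*(ob/ob) mice (SE 0.16; adjusted p = 0.0431). Its mean was 253 ± 55.9 normalized counts in WT (n = 5) and 177 ± 55.9 in *Lep*(ob/ob) mice (n = 7), and the groups overlapped. *Stat4*, *Stat5a*, *Stat5b* and *Stat6* were at -0.38, -0.49, 0.01 and 0.10, none past the threshold. *Stat5a*, the neighbour whose exons overlap those of *Stat3*, was thus estimated in the opposite direction to *Stat3* in this comparison. Both were negative in CCKRi against untreated mice, at -0.11 for *Stat5a* and -0.51 for *Stat3*. They were also both negative in CCKRi against WT mice, at -0.60 and -0.12. Whether reads were shared between them was not tested.

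None of the 7 other feedback inhibitors tested passed in any comparison, *Socs1* being too low to be tested. *Pias3* and *Ptpn6*, the highest of them in mean CPM not set per length, were at 0.14 ± 0.16 and -0.14 ± 0.21 in *Lep*(ob/ob) against WT. *Ptpn2*, the phosphatase gene closest in kind to *Ptpn1*, was at -0.12 ± 0.13 (adjusted p = 0.625), against 0.45 for *Ptpn1*. *Cish*, whose promoter window held 2 cores of the STAT palindrome, was at 0.39 ± 0.37 (adjusted p = 0.57).

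Of 15 genes known as STAT3 targets, only *Cebpd*, a transcription factor of the acute response, passed. It was at 27.0 to 48.2 normalized counts in WT and at 41.9 to 71.3 in *Lep*(ob/ob) mice, and rose 1.57-fold (log2 0.65 ± 0.20, adjusted p = 0.0493). In CCKRi against untreated mice, *Cebpd* was at -0.73 ± 0.23 (adjusted p = 0.263). The 15 had a median of 0.08 in the first comparison and -0.40 in the second, against -0.02 and -0.01 over all genes tested. In the second, the medians of macrophage markers (-1.19) and of fibroblast and stellate markers (-0.87) were lower still. Their part in the values of the list was not tested. *Mcl1* and *Vegfa*, the highest of the list in mean CPM not set per length, were at 0.05 and -0.42 in *Lep*(ob/ob) against WT, neither past the threshold.

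Among 12 other cytokine receptors tested, *Il6ra* and *Prlr* rose in *Lep*(ob/ob) mice. *Il6ra*, the receptor subunit for interleukin-6, was at 123 to 265 normalized counts in WT and at 277 to 486 in *Lep*(ob/ob) mice, with no overlap, and rose 2.25-fold (log2 1.17 ± 0.15, adjusted p = 0.000191). Such a separation upwards over all mice was found for 3.06% of genes. *Prlr*, at 90.8 to 136 in WT and 175 to 482 in *Lep*(ob/ob) mice, also did not overlap and rose 2.46-fold (log2 1.30 ± 0.31, adjusted p = 0.0133). In the 4 CCKRi mice, *Prlr* stood in the same order as the summed islet markers, from 112 in mouse 69, which had the lowest marker sum (27550), upwards to mouse 76, which had the highest (264100), whereas the order was the reverse in the 3 untreated *Lep*(ob/ob) mice of batch B. In *Lep*(ob/ob) mice, *Prlr* ran from 348 to 482 in batch A beside islet sums of 165400 to 234400, and from 175 to 197 in batch B beside islet sums of 46760 to 121700. *Il6ra* was at 461 to 486 in those of batch A and at 277 to 340 in those of batch B. Among CCKRi mice, *Il6ra* was 241 and 264 in the 2 with the lowest islet sums and 360 and 366 in the other 2. The part of islet cells in the rise of *Prlr* and *Il6ra* was not tested. *Il6ra* was also higher in CCKRi than in WT mice, by 1.15 ± 0.19 (adjusted p = 0.00172), as were *Prlr*, by 1.66 ± 0.38 (adjusted p = 0.0134), and *Cntfr*, the ciliary neurotrophic factor receptor, by 1.32 ± 0.34 (adjusted p = 0.0297). Between CCKRi and WT mice, 6 of 8 islet markers rose too, with a median log2 fold change of 2.54, and their part there was not tested. *Il10rb*, an interleukin-10 receptor subunit, fell by 0.55 in that comparison (SE 0.14; adjusted p = 0.0249). *Il6st*, the shared signalling subunit gp130, was at 0.00 ± 0.19 in *Lep*(ob/ob) against WT. Between CCKRi and untreated mice, the receptors with the highest mean CPM, not set per length, were *Lifr*, for leukaemia inhibitory factor, at 0.50 ± 0.20 and *Ghr*, for growth hormone, at -0.19 ± 0.26, neither past the threshold. Of 10 ligands of these receptors, only *Ctf1* and *Clcf1* were high enough to be tested, and neither passed.

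**Figure D4:**
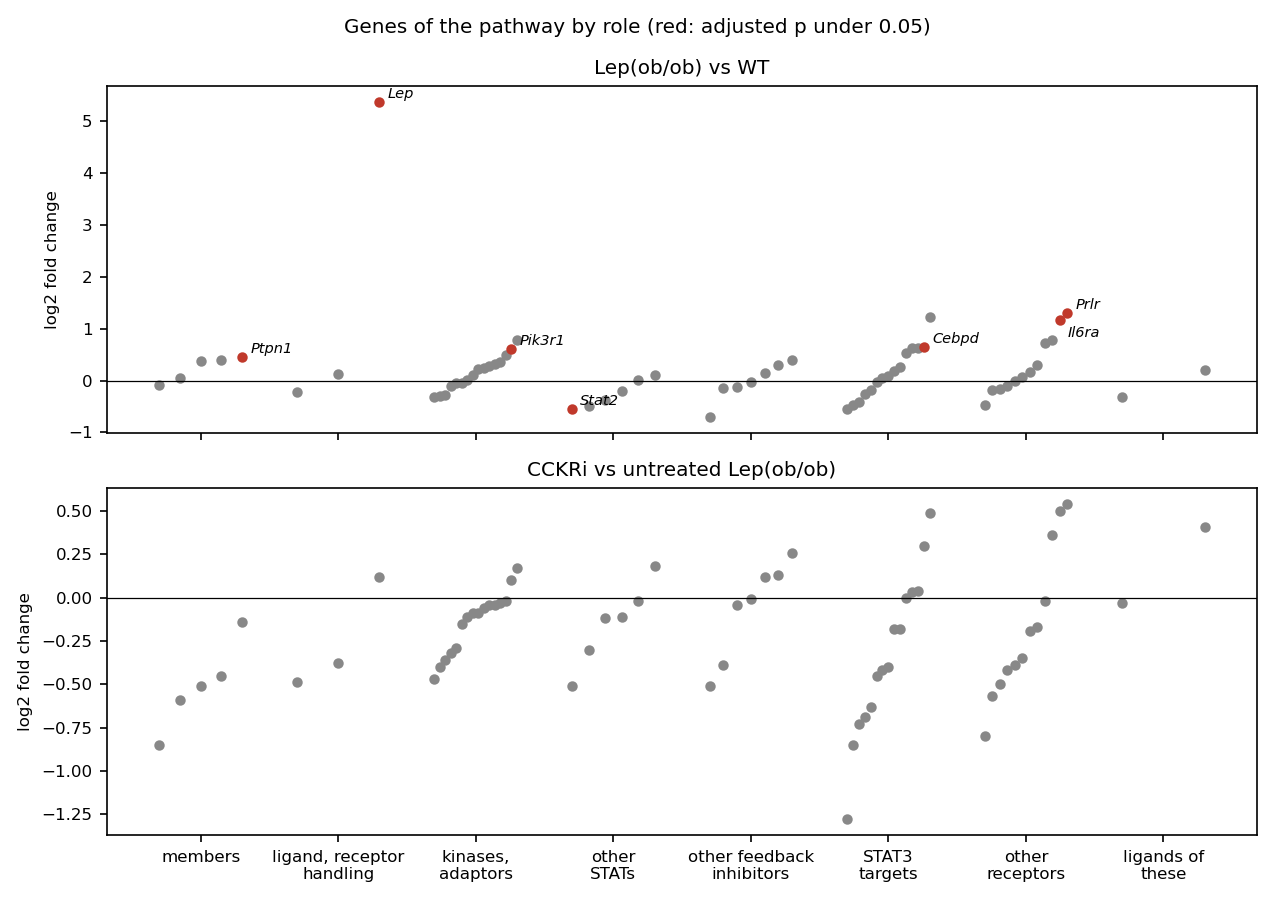
Log2 fold change (y axis) of the 5 members and the 61 other pathway genes tested, arranged by role (x axis), in Lep(ob/ob) against WT (top) and CCKRi against untreated Lep(ob/ob) (bottom; the y axes differ in range); red points have an adjusted p under 0.05. In the top panel, Ptpn1 and 6 other genes are red, Lep standing apart at 5.38, and in the bottom panel none is.

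The genes whose profile over the 16 mice was most like that of each member were named by the root mean square difference of log2 CPM, each gene centred on its mean. For *Ptpn1* these were *Ncstn*, a subunit of gamma-secretase (0.14), and *Ctsa*, a lysosomal carboxypeptidase (0.15). For *Stat3* they were *Ccm2* (0.14) and *Agpat3* (0.18), for *Jak2* the interferon receptor gene *Ifnar1* and the transcription factor gene *Mef2a* (0.12 each), and for *Lepr* *Asap1* and *Crim1* (0.19 each). *Socs3* had no close match, the nearest being *Sbno2* at 0.42 and *Cdca3* at 0.44. All points share libraries and batches, and the likeness is a description of these 16 mice.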

How the data were processed

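Whole-pancreas RNA-seq libraries from 16 mice were analysed. Per the labels, the authors used Trim Galore 0.6.7 with cutadapt 3.5 for trimming and STAR 2.7.9 for alignment, with mm10 as the genome. The read counter, its strand setting and the annotation are not given in the sources used here, although the library kit keeps strand. The authors deposited a raw count per gene symbol and a normalized signal, checked to equal raw counts over a size factor constant within each mouse (0.617 to 1.44). The chi-square per gene was at least 8.09 in all 37 pairs of libraries of a group, so none was deposited more than once. Each library is 1 mouse, and p-values measure the spread between mice.

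Raw counts were fitted in edgeR 4.0.16 (R 4.3.3; TMM, filterByExpr, quasi-likelihood test, all 16 mice, group and batch), with Benjamini-Hochberg adjustment over 13660 genes and a threshold of 0.05. SE is the log2 fold change divided by the root of its F statistic. Levels are normalized counts, set per kilobase of merged GENCODE M21 exons between genes. Exact permutation tests of log2 CPM were two-sided, 5 per comparison, and uncorrected. Scripts ran in Python 3.11.15 (numpy 2.4.6, pandas 2.3.3) and were tested on simulated data. Promoters came from RefSeq GRCm38.p6.

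The members, lists, tests and alternatives were chosen with earlier results of these data known. Genes named are the members, *Lep*, the JAK and STAT families (1 gene is not reported here), the genes of each role list that passed (otherwise the 2 of highest mean CPM), and the 2 nearest profiles of each member. *Leprotl1*, *Ptpn11*, *Irs2*, *Ptpn2*, *Cish*, *Cntfr*, *Il10rb*, *Il6st*, *Ptpre* and *Icam1* were added after their values were seen. Alternatives were no batch term, DESeq2 1.42.0, RLE scaling, TMM without the 50 most counted genes, other filters on low counts, only the groups compared, each batch, each drug, and mice left out.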

Additional observations from a re-analysis of the deposited data

Results flagged for a closer look

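In 5 of 81 combinations of a named gene and a group, 1 mouse stood apart from the rest of its group. This was measured as its gap to the nearest other mouse divided by the range of the group, on log2 normalized counts plus 1. The search covered 27 of the named genes, without *Leprot*, the nearest profiles and the genes added after their values were seen. For groups with no shift between batches, chance alone gives about 1 in 20, or 4 of 81. The WT and *Lep*(ob/ob) groups pooled both batches here, and 35.7% of all genes differed between the batches. *Socs3* was low in WT mouse 5492, at 45.9 normalized counts against 73.9 to 81.1 in the other 4 WT mice (gap over range 0.837). *Cebpd* was high in CCKRi mouse 69, at 47.2 against 31.7 to 33.4 (0.866). *Pias3* was low in *Lep*(ob/ob) mouse 472, at 146 against 181 to 208 (0.606). *Vegfa* was high in *Lep*(ob/ob) mouse 464, at 1999 against 692 to 1039 (0.617). Mouse 464 was in batch B, where *Vegfa* was 1474 and 2476 in WT and 1540 to 2342 in CCKRi mice. The other untreated *Lep*(ob/ob) mice of batch B had 899 and 1039. *Ghr*, the growth hormone receptor, was high in *Lep*(ob/ob) mouse 463, at 4926 against 2088 to 2809 (0.654).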

How the results depend on the processing

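For *Lep*(ob/ob) against WT, the log2 fold change of *Ptpn1* stayed positive in every alternative. The call was lost with no batch term (0.43), no filter (0.46), only these groups (0.43), batch A (0.37) or batch B (0.63) alone, and without the 4 mice of highest adipocyte markers (0.31), each leaving 0 members called; single mice left out gave 0.37 to 0.54 and 0 to 1 members called. *Lepr* turned to -0.31 in batch A and -0.41 without those 4 mice, and ran from -0.11 to 0.20 without single mice. *Jak2* turned to 0.25 in batch B. Of the genes tested, 9.07% passed, against 5.84% with no batch term, 6.97% with at least 10 counts in every mouse (782 genes against 1239) and 0.057% in batch B.

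For CCKRi against untreated *Lep*(ob/ob) mice, 2 members passed with no batch term (*Ptpn1* -0.73, *Stat3* -0.77) and 1 in DESeq2 (*Ptpn1* -0.62). Without the 4 mice, *Jak2* was 0.10 and *Lepr* 0.23, and *Jak2* ran from -0.21 to 0.01 without single mice, being positive without *Lep*(ob/ob) mouse 463. The share of genes passing, 0.0586% (8 genes), was 4.17% with no batch term, 0.761% in DESeq2 (104 genes), 0.0366% without the 50 most counted genes in TMM, 0.0224% with only these groups, 0.0142% in batch B, 0 for either drug alone and 0 to 0.0657% without single mice. For CCKRi against WT, with only these groups *Jak2* was 0.03, *Lepr* 0.05, *Stat3* 0.02 and *Ptpn1* 0, in batch B *Jak2* was 0.02, *Lepr* 0.04 and *Stat3* 0.01, and without the 4 mice *Ptpn1* was 0.06. The share of genes passing, 5.57%, was 10.5% with no batch term, 3.91% with at least 10 counts in every mouse, 2.18% with only these groups, 0.0926% in batch B, 1.65% for proglumide alone and 9.64% without the 4 mice. The cause of these shifts was not tested.

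No paired analysis was possible because the mouse numbers differ between the groups. Leaving out a mouse can leave a group with 1 mouse in a batch. *Lepr* and *Socs3* had as few as 32 and 25 reads in a library, where counting error adds to the spread between mice, and CCKRi mice were in batch B alone.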
